A study of Homo sapiens with 6 samples.

Results

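The spindle assembly checkpoint genes are the genes whose products hold a cell in mitosis until every chromosome is attached to the spindle. They were taken as the rows of the array table whose name is 1 of 9 symbols: TTK, BUB1, MAD1L1, MAD2L1, BUB1B, BUB3, CDC20, MAD2L1BP and TRIP13. All 9 were found among 37879 rows. Transcript levels were measured in total RNA of HEK293T cells, a human embryonic kidney line that carries the SV40 large T antigen, on 6 Illumina BeadChip arrays. The control group (n = 3) was transfected with the empty vector, and the Stau1 group (n = 3) with a plasmid coding for Stau155-FLAG. This is a FLAG-tagged isoform of the double-stranded RNA-binding protein Staufen1. The study's methods describe plasmids for it with a Rous sarcoma virus promoter and with a Murine Stem Cell Virus promoter. They do not say which was used for these arrays. Both groups were arrested in prometaphase with nocodazole, a drug that depolymerizes microtubules, at 50 ng/ml for 15 h per the labels, while a longer exposure is stated in the study's methods. No untreated or asynchronous culture was among the 6 samples, so all comparisons are between 2 arrested populations. The transfection was transient, and the labels do not say whether replicates came from separate cultures, so p-values measure the spread between these samples, which may be technical.

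In an arrested cell, unattached kinetochores recruit the kinases TTK (also called MPS1) and BUB1, and MAD1L1 anchors MAD2L1 there. MAD2L1 then changes shape and joins BUB1B (also called BUBR1), BUB3 and CDC20 in the mitotic checkpoint complex, which blocks the anaphase promoting complex/cyclosome (APC/C), the ubiquitin ligase that CDC20 otherwise activates. MAD2L1BP (also called p31comet) and the ATPase TRIP13 take the complex apart again. Nocodazole leaves kinetochores unattached and so keeps this machinery engaged. Many of these genes are transcribed mainly in G2 and mitosis through promoters that carry a cell cycle genes homology region (CHR), often near CCAAT boxes.

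The promoters of the members were searched for these elements. RefSeq promoter sequences (GRCh38.p14) were found for 7 of the 9 members, with 2 promoters for MAD2L1BP; BUB3 and TTK had no entry. The letters TTTGAA (CHR), TTCGAA (a CHR variant that reads the same on both strands) and CCAAT were searched on both strands of the 300 bases around each start, and no match overlapped another. TTTGAA was present in 4 of the 8 member promoters against 15.2% of all 35116 promoters, TTCGAA in 2 of 8 against 1.45%, and CCAAT in 3 of 8 against 34.6%. These few promoters were not tested against those shares. TTTGAA was found for MAD2L1, BUB1B, CDC20 and 1 of the 2 MAD2L1BP promoters, and TTCGAA for BUB1 and TRIP13. The windows below are those with a match between 110 bases before and 30 bases after the start, on the strand of the gene, with all matches in capitals. They are shown because they are the control regions of members whose levels are compared here; a match of letters is a description and not a bound site.
MAD2L1, chr4:120066819-120066958, minus strand: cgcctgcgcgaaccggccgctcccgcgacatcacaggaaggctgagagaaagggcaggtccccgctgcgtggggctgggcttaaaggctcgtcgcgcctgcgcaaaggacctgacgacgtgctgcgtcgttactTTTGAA
BUB1B, chr15:40160959-40161098, plus strand: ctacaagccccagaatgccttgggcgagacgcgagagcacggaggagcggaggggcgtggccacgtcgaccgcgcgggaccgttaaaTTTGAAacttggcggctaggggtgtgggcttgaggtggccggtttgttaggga
CDC20, chr1:43358871-43359010, plus strand: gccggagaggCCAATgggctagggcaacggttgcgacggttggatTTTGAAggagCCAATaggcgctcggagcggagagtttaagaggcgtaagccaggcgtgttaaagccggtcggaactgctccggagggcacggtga
BUB1, chr2:110678034-110678173, minus strand: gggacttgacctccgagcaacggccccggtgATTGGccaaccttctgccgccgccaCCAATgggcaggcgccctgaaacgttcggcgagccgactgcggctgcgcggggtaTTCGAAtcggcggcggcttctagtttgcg
TRIP13, chr5:892774-892913, plus strand: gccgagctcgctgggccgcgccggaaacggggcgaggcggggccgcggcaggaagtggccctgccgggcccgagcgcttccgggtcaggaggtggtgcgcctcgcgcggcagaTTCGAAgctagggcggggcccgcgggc

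In CDC20 the TTTGAA began at -65 and CCAAT boxes began at -100 and -55, counted from the start of the gene, and a further TTTGAA on the opposite strand lay outside the window at -178. In BUB1B it began at -23, and in MAD2L1 it began 25 bases into the gene. The TTCGAA began at position 2 of BUB1 and position 4 of TRIP13. BUB1 also had 2 CCAAT matches, at -79 on the opposite strand and at -54. MAD1L1 held none of the letters in its 300 bases.

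Array quality touches every value below. All 9 members had a detection p under 0.05 on all 6 arrays (the highest was 0.00264, for BUB1B), and the means behind their values came from 22 to 56 beads. The bead numbers fit 1 probe for TTK, BUB1, BUB1B, CDC20 and TRIP13, 2 for MAD1L1 and MAD2L1, 3 for MAD2L1BP and 4 for BUB3. Array intensities depend on the probe, so transcript levels are compared between arrays for each gene and not between genes. Median raw intensity ranged from 83.0 to 102.2 over the arrays, and correlations between arrays were 0.987 or higher over the 13285 rows detected on at least 3 arrays (Pearson's r across genes, which are not independent replicates). Of 7 markers of the line, 6 were detected on all arrays and PAX2 on 1. In 2 of these 6 the groups did not overlap, beside 7.91% of the 13285 rows. The keratin KRT8 averaged 7.28 (SD 0.074) in control and 6.67 (SD 0.31) in Stau1 arrays, and VIM averaged 13.01 (SD 0.0054) and 12.96 (SD 0.011). Neither difference passed (adjusted p = 0.999 in limma), and their part in the values of the checkpoint genes was not tested. Of 6 markers of other cell types, 5 were detected on none, while INS had a detection p under 0.05 on all 6 arrays at a log2 intensity of 5.62 in control and 5.65 in Stau1 arrays. The highest detection p of INS was 0.0408, and the other 5 markers averaged 4.86 to 5.06 in control arrays. STAU1 itself averaged 11.31 (SD 0.10) in control and 11.46 (SD 0.060) in Stau1 arrays without overlap, a log2 difference of 0.15 with an adjusted p of 0.999 in limma. Whether its probes also read the plasmid transcript was not tested, so this difference is not a measure of the Stau155-FLAG made. Where a level differs in such a bulk sample, fewer cells with the transcript and less RNA per cell cannot be told apart.

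The question put to these arrays was whether transcript levels in prometaphase differ when Stau155-FLAG is made from a plasmid. None of the 9 checkpoint transcripts passed the threshold (limma, lowest adjusted p = 0.999), against 0% of the 13285 rows tested. At an unadjusted p under 0.05 there were 0 members, against 3.73% of rows (2.4% higher and 1.32% lower in Stau1 arrays). The methods' t-test was run on the gene rows prepared here, and not on probes processed as in the study. At an unadjusted p under 0.05 with a 2-fold threshold it also gave 0 members, against 0% of rows. Its lowest unadjusted p over the members, 0.194, was that of TRIP13. Groups without overlap were found for 0 of the 9 members, against 7.91% of rows, and so small a list cannot be told from that share. Of the members, 5 had a higher mean in Stau1 arrays and 4 a lower one. Their median log2 change was 0.058, beside -0.00206 over all rows, and their median absolute change was 0.10, beside 0.093. The 95% confidence interval of each change held 0 and lay within a 2-fold change in both directions. For 8 members it also lay within 1.5-fold, and for BUB1B it reached 1.52-fold at its upper end.

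**Figure D1:**
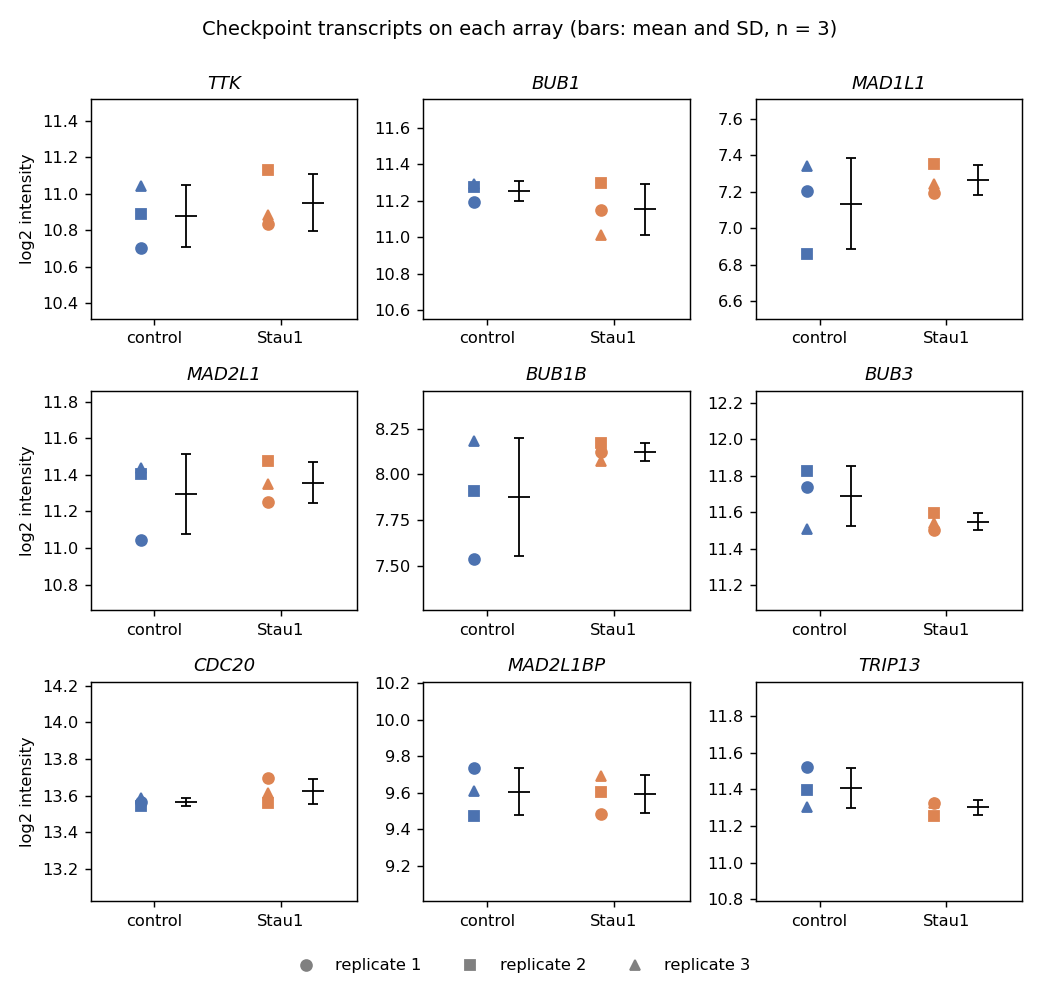
Log2 intensity (y axis, each panel 1.2 log2 units high) of the 9 checkpoint transcripts on 3 control (blue) and 3 Stau1 (orange) arrays, with the marker shape giving the replicate and the black bars the mean ± SD (n = 3). In every panel the orange points lie within or overlap the range of the blue ones, and the widest spread is that of BUB1B among controls.

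TTK and BUB1 are the kinases that start checkpoint signalling at the kinetochore. TTK was at 10.70, 10.89 and 11.04 in control replicates 1, 2 and 3, and at 10.84, 11.13 and 10.88 in Stau1 replicates 1, 2 and 3. The lowest value was a control and the highest a Stau1 array, and between them both other Stau1 values lay below both other controls. Its log2 change was 0.071 (SE 0.12), with a 95% interval of -0.18 to 0.32 (exact two-sided permutation test, p = 0.7), and it was -0.018 without control replicate 1 or without Stau1 replicate 2. BUB1 was at 11.19, 11.28 and 11.29 in the controls and at 11.15, 11.29 and 11.01 in Stau1 arrays. Its controls lay close together (SD 0.055), and Stau1 replicate 3 lay below the other 5 arrays. The change was -0.10 (SE 0.099), with an interval of -0.31 to 0.11 (exact permutation test, p = 0.4).

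MAD1L1 codes for the coiled-coil protein that holds MAD2L1 at unattached kinetochores. Its raw intensity was 171.2 to 278.3 over the arrays, and its log2 intensity was 7.20, 6.86 and 7.34 in the controls against 7.19, 7.35 and 7.24 in Stau1 arrays. Control replicate 2 was below all other arrays, and the other 5 spanned a narrow range. The log2 change was 0.13 (SE 0.16, interval -0.22 to 0.48, exact permutation test, p = 0.5). It was -0.0081 without control replicate 2 and 0.016 when the background was inferred over all rows. That last setting inferred a background SD of 337 to 488, above the raw intensities of MAD1L1.

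MAD2L1, BUB1B, BUB3 and CDC20 make up the mitotic checkpoint complex. MAD2L1, whose protein closes around CDC20, was at 11.04, 11.40 and 11.44 in the controls and at 11.25, 11.48 and 11.35 in Stau1 arrays. Control replicate 1 was lowest, and the other 2 controls lay among the Stau1 arrays. The log2 change was 0.063 (SE 0.12, interval -0.19 to 0.31; exact permutation test, p = 0.8), and without control replicate 1 it was -0.063. BUB1B, which blocks CDC20 as a pseudosubstrate of the APC/C, was at 7.53, 7.91 and 8.18 in the controls and at 8.12, 8.17 and 8.07 in Stau1 arrays. The 3 Stau1 arrays lay together (SD 0.050) above control replicates 1 and 2, but control replicate 3 was above all of them. Its change of 0.25 was the largest among the members (SE 0.17, interval -0.11 to 0.61; exact permutation test, p = 0.4). It was 0.056 when the background was inferred over all rows, 0.076 without control replicate 1 and 0.40 without control replicate 3. The last had an adjusted p of 0.317 in limma, where 0.294% of all rows passed and 12.8% had an unadjusted p under 0.05. The background SD inferred over all rows was 337 to 488, beside BUB1B raw intensities of 211.1 to 442.3.

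BUB3, the WD40-repeat partner that brings BUB1 and BUB1B to the kinetochore, was at 11.74, 11.82 and 11.51 in the controls and at 11.51, 11.60 and 11.54 in Stau1 arrays. Control replicates 1 and 2 were above every Stau1 array, and control replicate 3 lay between the lowest 2 Stau1 arrays. The log2 change was -0.14 (SE 0.099, interval -0.36 to 0.071; exact permutation test, p = 0.3), and without control replicate 3 it was -0.23 (limma, adjusted p = 0.319). CDC20, the APC/C activator that the complex captures, was at 13.56, 13.54 and 13.58 in the controls and at 13.70, 13.56 and 13.61 in Stau1 arrays. After quantile normalization CDC20 was the steadiest member: its whole range over 6 arrays was 0.15, lower than in all but 3.00% of rows. Its control SD of 0.020 was at the 1.11 percentile. Both percentiles are over kept rows of every intensity, and the part of the normalization in this steadiness was not tested. The change was 0.058 (SE 0.073, interval -0.099 to 0.22; exact permutation test, p = 0.3). Scanner saturation was not given in the table, so a ceiling on this bright row (raw intensities from 9992 to 15004) was not tested.

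MAD2L1BP and TRIP13 act together, the first as the adaptor that presents MAD2L1 and the second as the ATPase that reopens it. MAD2L1BP was at 9.74, 9.47 and 9.61 in the controls and at 9.48, 9.60 and 9.69 in Stau1 arrays, so the groups covered nearly the same range. Its change was -0.014 (SE 0.12, interval -0.27 to 0.24; exact permutation test, p = 0.9). Its sign was the opposite with array weights (0.078), without control replicate 1 (0.050) and without Stau1 replicate 1 (0.039). TRIP13 was at 11.52, 11.40 and 11.30 in the controls and at 11.33, 11.25 and 11.33 in Stau1 arrays. Control replicates 1 and 2 were above all 3 Stau1 arrays and control replicate 3 was not. The change was -0.10 (SE 0.093, interval -0.30 to 0.095; exact permutation test, p = 0.3).

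**Figure D2:**
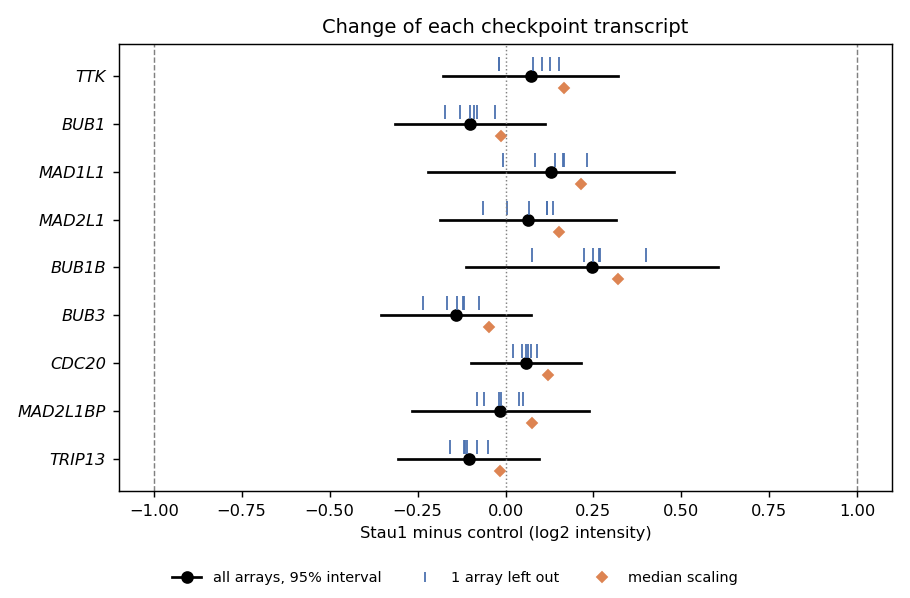
Log2 change of each checkpoint transcript, Stau1 minus control (x axis), as the value from all 6 arrays with its 95% interval (black), the 6 values with 1 array left out (blue ticks) and the value with median scaling (orange). All 9 black intervals cross 0 and stay between the dashed lines at a 2-fold change, with the widest for BUB1B (-0.11 to 0.61).

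Members spread more widely among the control arrays than among the Stau1 arrays, as most rows did. The control SD exceeded the Stau1 SD for 7 of 9 members, beside 68.4% of all rows, and the exceptions were BUB1 and CDC20. The median SD over the members was 0.16 in control and 0.081 in Stau1 arrays, beside 0.17 and 0.12 over all rows. Relative to each gene's mean over the 6 arrays, control replicate 1 was low for BUB1B (-0.46), MAD2L1 (-0.28) and TTK (-0.21) and high for TRIP13 (0.17), MAD2L1BP (0.14) and BUB3 (0.12). Stau1 replicate 2 had the opposite sign for 5 of these 6 genes, at 0.17, 0.15, 0.21, -0.10 and -0.021 in BUB1B, MAD2L1, TTK, TRIP13 and BUB3, and was close to the mean for MAD2L1BP (0.0037). The standard error over beads, expressed on the log2 scale, had a median from 0.041 for CDC20 to 0.12 for MAD1L1. The SD between arrays of a group was 1.27 times this error for CDC20 and 3.79 times for TTK, with the other members between these values. For rows of several probes the meaning of the deposited bead error is less clear than for rows of 1 probe.

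**Figure D3:**
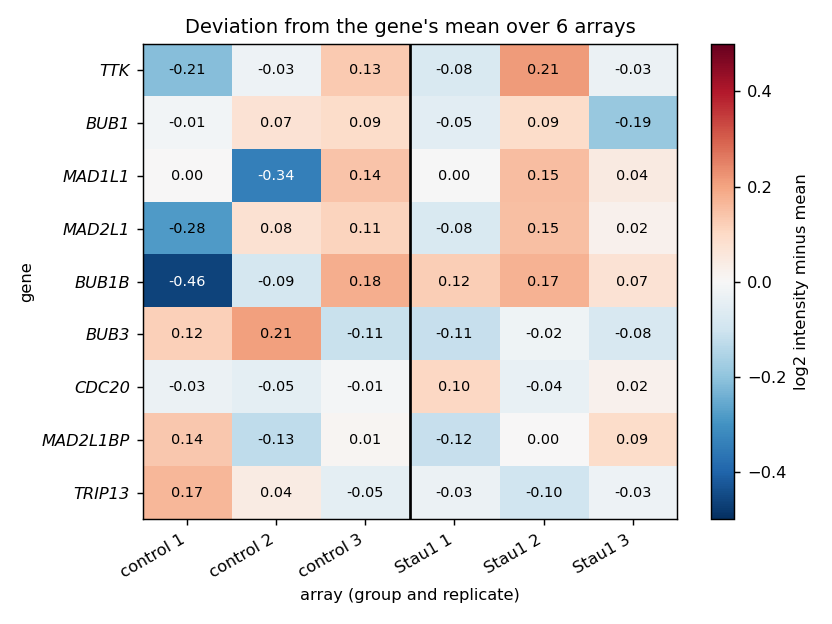
Log2 intensity minus the gene's mean over the 6 arrays, for 9 checkpoint genes (rows) and 6 arrays (columns, controls left of the black line), coloured from blue (below the mean) to red (above it). The column of control replicate 1 holds the lowest values of BUB1B (-0.46), MAD2L1 (-0.28) and TTK (-0.21), and the largest deviation of CDC20 is 0.10.

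How members varied together over the arrays is given as a description. Pearson's r over the 6 arrays was computed for all 36 pairs of members, of which 5 had an unadjusted exact permutation p under 0.05 and 0 an adjusted one (Benjamini-Hochberg over the pairs, lowest adjusted p = 0.125). Of the 36 values 15 were above 0 and 21 below. Over these few arrays a high r was not particular to members. Of 10925 other rows detected on all arrays, 285 (2.61%) had an r above 0.9 with MAD2L1. For MAD2L1 and TTK r was 0.91 (exact permutation p = 0.00694) and Spearman's rho was 1 (exact permutation p = 0.00278, adjusted p = 0.1), and r was 0.91 without control replicate 1 and Stau1 replicate 1, the 2 arrays farthest from the median of MAD2L1. Within groups (each value minus its group mean) it was 0.90. For BUB1B and TRIP13 r was -0.98 (exact permutation p = 0.00417) and rho = -0.94 (exact permutation p = 0.0167, adjusted p = 0.3). Without control replicates 1 and 2, the farthest from the median of BUB1B, r was -0.71. The negative sign depended on the scaling of the arrays: with median scaling r was 0.82 for BUB1B and TRIP13, and 0.89 in place of -0.84 for MAD2L1 and TRIP13. For MAD2L1 and TTK r was 0.98 with median scaling. The array medians lay near background: raw medians were 83.0 to 102.2, beside inferred background means of 74.6 to 92.7. Every member had a higher raw intensity on control replicate 3 than on control replicate 1 (for TRIP13, 3246.5 and 2358.0). The part of this brightness in the r values with median scaling was not tested.

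A plain ratio of 2 transcripts within an array does not depend on a scaling factor of the array. For this reason 6 ratios between members were computed from background-corrected intensities before normalization and centred on their mean. The pairs were chosen after the data had been seen, and not all are of members known to act on one another. These intensities still held the added offset of 16, so the ratios were not wholly free of scaling, most of all for dim rows such as BUB1B. The log2 ratio of BUB1B over TRIP13 took the values -0.62, -0.13 and 0.24 among control replicates 1, 2 and 3 and 0.16, 0.27 and 0.072 among the Stau1 arrays, a range of 1.85-fold. The control arrays alone covered nearly this whole range, from control replicate 1 at the bottom to control replicate 3. The mean ratio was 0.34 higher in Stau1 arrays (exact two-sided permutation test, p = 0.3, adjusted p = 0.8 over 6 ratios), 0.11 higher without control replicate 1 and 0.54 higher without control replicate 3. The ratio of BUB1B over BUB3 spanned 1.80-fold and was 0.37 higher in Stau1 arrays (exact permutation test, p = 0.4), 0.18 higher without control replicate 1 and 0.61 higher without control replicate 3. MAD2L1 over MAD2L1BP, the protein that removes it, was -0.42, 0.21 and 0.089 in the controls and 0.040, 0.13 and -0.051 in Stau1 arrays. Its mean difference was 0.077 (exact permutation test, p = 0.9), and it was -0.11 without control replicate 1. MAD2L1 over CDC20, its partner in the complex, differed by 0.030 (exact permutation test, p = 0.9). The groups overlapped in all 6 ratios.

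The rest of the pathway was read from 6 gene lists with 57 genes in all, each of which had a row, and 52 of which passed the detection filter. None of the 52 passed the threshold in either direction (limma, lowest adjusted p = 0.999). At an unadjusted p under 0.05 there were 2, beside 3.73% of all rows, and the groups did not overlap in 4 (SPC24, INCENP, ANAPC5 and FZR1), beside 7.91%. Means were higher with Stau1 for 28 and lower for 24, and the median log2 change was 0.0098.

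Among 15 kinetochore genes that dock the checkpoint proteins, the median change was 0.013 and 9 were higher. The lowest unadjusted p values were those of CENPF, a large coiled-coil protein of the outer kinetochore, at 9.28 ± 0.28 in control and 8.91 ± 0.15 in Stau1 arrays (SD, n = 3 each; change -0.36, SE 0.15), and of CASC5 (KNL1), the scaffold that binds BUB1 and BUB1B through BUB3, at 6.07 ± 0.31 and 6.42 ± 0.079 (change 0.35, SE 0.17). Both had overlapping groups. The 4 genes of the RZZ complex and Spindly, which bring dynein and MAD1L1 to kinetochores, had a median of -0.0093, with ZWILCH at -0.15 and CCDC99 (Spindly) at 0.14.

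Of 8 genes of the chromosomal passenger complex and the mitotic kinases, 4 were higher and 4 lower. INCENP, the scaffold of the passenger complex, was at 7.38 ± 0.12 in control and 7.70 ± 0.11 in Stau1 arrays with no overlap (change 0.32, SE 0.14), and CDC2 (CDK1), the kinase that drives mitosis, was at 10.46 ± 0.30 and 10.17 ± 0.22 with overlap (change -0.30, SE 0.15). The adjusted p was 0.999 in limma for both.

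Of 17 genes of the APC/C, its E2 enzymes and its activator FZR1 (Cdh1), 14 were kept, and ANAPC11, CDC27 and UBE2S were not detected on at least 3 arrays. ANAPC11 averaged 8.52 in control and 8.49 in Stau1 arrays but was detected on only 2, so a row not kept was not taken as absent. The median change of the 14 kept genes was 0.051, the highest of the 6 lists. FZR1 was at 5.55 ± 0.061 in control and 5.85 ± 0.18 in Stau1 arrays, with a detection p of up to 0.0422, and with no overlap (change 0.30, SE 0.14). For UBE2C, the E2 that starts ubiquitin chains, the difference was -0.21 (SE 0.12) with overlap. The fifth list held the APC/C substrates CCNB1, CCNB2, CCNA2 and PTTG1 together with ESPL1, and 4 of these 5 genes were lower with Stau1 and the median was -0.026. The difference was -0.16 (SE 0.11) for PTTG1 (securin) and 0.15 (SE 0.13) for ESPL1 (separase, which securin holds inactive), and both had overlapping groups. Of 8 accessory genes 6 were kept, with CUEDC2 at -0.13 and MAD2L2, a MAD2-like protein with roles in DNA repair, at -0.12, while RAE1 and HORMAD1 were not kept. RAE1 averaged 10.31 in control and 10.29 in Stau1 arrays, but had a detection p under 0.05 on only 1 array.

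**Figure D4:**
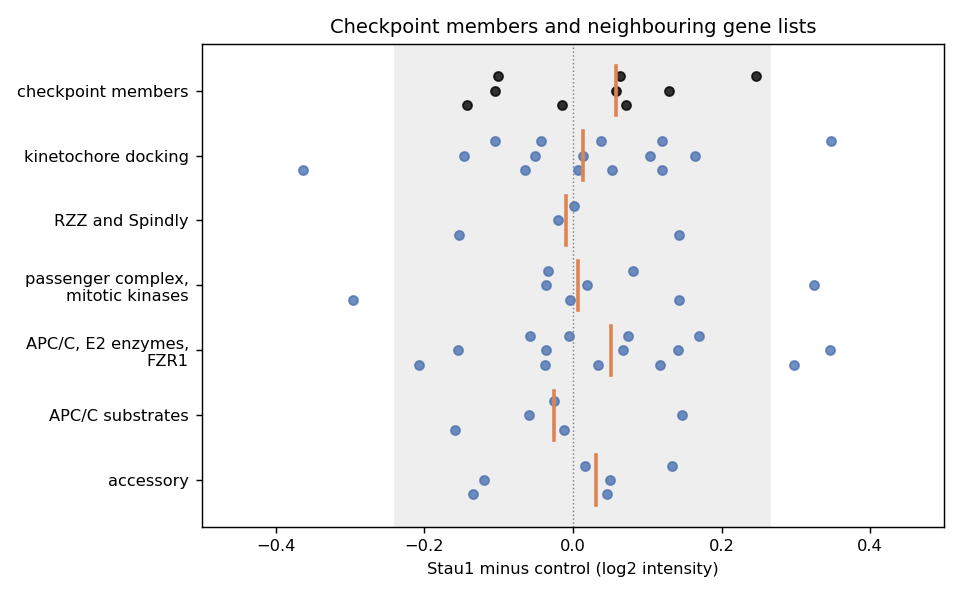
Log2 change, Stau1 minus control (x axis), of the 9 checkpoint members (black) and of the 52 kept genes of 6 neighbouring lists (blue), 1 point a gene, with the list's median (orange) and the range from the 5th to the 95th percentile of all 13285 rows shaded. The members and most listed genes lie in the shaded band, from -0.24 to 0.26, and the list medians lie between -0.026 and 0.058.

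The rows most like each member over the 6 arrays were found among 10925 other rows detected on all arrays. Over only 6 arrays, between 44 rows (0.403%, BUB1) and 407 rows (3.73%, BUB1B) had r above 0.9 with a member. The highest r was 0.997 for BUB1B with ZMYND11 (a chromatin reader), followed by JMJD1C (0.996), and 0.997 for TRIP13 with HINT2. MAD2L1 was closest to TMEM56 (0.995) and SNX2 (0.994), and TTK to DNAJB4 (0.995) and PMS2L2 (0.992). BUB3 was closest to IGFBP4 (0.993) and CLYBL (0.992), and CDC20 to NOL7 (0.996) and FAM57A (0.986). MAD1L1 was closest to MED26 (0.989) and LOC644094 (0.985), MAD2L1BP to LOC387867 (0.991) and SEPT9 (0.989), and BUB1 to DYNC2H1 (0.978) and SLC22A15 (0.976). None of the closest 2 rows of any member was itself a member.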

How the data were processed

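The authors hybridized labelled total RNA to Illumina BeadChips and deposited a BeadStudio gene profile with 1 row per gene. Per the file headers, the deposited signal intensity was neither background-subtracted nor normalized. The deposited detection p-value compares each row with negative control beads. The deposited bead standard error is in intensity units, beside a mean bead number. Every column of values belonged to 1 of the 6 samples. The build of the chromosomes in the array table was not given in the sources used here.

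Values were prepared with limma 3.58.1 in R 4.3.3. Background was removed by normexp (offset 16 added afterwards), with means (74.6 to 92.7) and SDs (15.2 to 18.2) inferred from detection p-values over 30932 rows taken to hold 1 probe, since their bead numbers were whole and their detection p-values multiples of 1 in 759 (tolerance 0.002 steps). Quantile normalization and log2 followed. The filter kept 13285 rows (35.1%), those detected at p under 0.05 on 3 arrays or more. Groups were taken from the sample titles and compared over all kept rows with lmFit and eBayes with a variance trend, Benjamini-Hochberg adjustment and a threshold of 0.05. The smallest p of an exact permutation test between 3 and 3 arrays is 0.1. The fit was tested on simulated data.

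The methods' t-test (two-sided, equal variances), stated for other arrays of the study, was also run here. Its 2-fold threshold is the one the study's text applies to probes of these arrays. The study's methods name a variance stabilizing transformation and robust spline normalization, so counts here are not like for like with the study's. The members, lists and tests were chosen with earlier results of these data known. Named were all members, the 2 kept genes of each list with the lowest unadjusted p, and for each member the 2 rows of highest Pearson's r (1 such row is not reported here); genes called non-overlapping or not kept are named where a count is small. One listed gene, SKA3, was found under an older symbol through RefSeq names, and others under older symbols given with the lists. The number of arrays limits the precision.

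The alternatives left out the background correction, inferred it from all rows, or added an offset of 50. They replaced quantile normalization by cyclic loess (on log2 or generalised log values) or median scaling. They dropped the filter or asked for a detection p under 0.01 on every array. They fitted array weights, a replicate block or a constant prior variance, used the methods' t-test, or left out each array. The array correlations and within-array ratios of members, with their alternatives, were chosen after the data had been seen.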

Additional observations from a re-analysis of the deposited data

How the results depend on the processing

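No member passed the threshold under any of 18 other settings (lowest adjusted p = 0.317, BUB1B without control replicate 3), and of 162 member values 154 kept their sign. Signs could not turn under the filter, constant prior variance, replicate block and t-test settings, which left each change itself unaltered. No gene of the 6 lists passed under those settings either (lowest adjusted p = 0.163, without control replicate 3, where 39 of 13285 rows passed in limma). Inferring the background over all rows gave BUB1B a change of 0.0563 and MAD1L1 a change of 0.0159. The background SD was then 337 to 488, beside 15.2 to 18.2 in the main setting. Raw intensities were at most 442.3 for BUB1B and 278.3 for MAD1L1. With all arrays the sign turned for MAD2L1BP, to 0.0778 with array weights and to 0.0743 with median scaling, which moved the median over all rows from -0.00206 to 0.0679. The other turns, of MAD1L1, MAD2L1, TTK and MAD2L1BP, came with 1 array left out. With 1 array left out, changes ran from -0.0635 to 0.135 for MAD2L1, -0.0810 to 0.0497 for MAD2L1BP, -0.0181 to 0.153 for TTK, -0.00808 to 0.233 for MAD1L1, 0.0758 to 0.398 for BUB1B, -0.234 to -0.0749 for BUB3, -0.173 to -0.0311 for BUB1, 0.0222 to 0.0882 for CDC20 and -0.157 to -0.0492 for TRIP13. The median over the members ran from -0.0181 (without control replicate 1) to 0.0718 in these fits. It was also below 0 without Stau1 replicate 2 (-0.0177) and without control replicate 2 (-0.00808). The members past the t-test's 2-fold threshold stayed at 0 at 1.5-fold, and 0 had groups apart with median scaling, cyclic loess or no background correction.

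With median scaling r turned to 0.821 for BUB1B and TRIP13 and to 0.892 for MAD2L1 and TRIP13. Under the other backgrounds and normalizations both stayed below 0. With 1 array left out r ran from -0.998 to -0.915 for BUB1B and TRIP13, from -0.946 to -0.336 for MAD2L1 and TRIP13, and from 0.868 to 0.957 for MAD2L1 and TTK. The within-array difference ran from -0.112 to 0.202 for MAD2L1 over MAD2L1BP, from -0.0202 to 0.290 for MAD2L1 over TRIP13, from -0.128 to 0.123 for MAD2L1 over CDC20, from 0.180 to 0.605 for BUB1B over BUB3, from 0.112 to 0.539 for BUB1B over TRIP13 and from 0.0315 to 0.323 for TTK over TRIP13. The cause was not tested.

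Between same-numbered arrays the r of deviations from group means was 0.015, 0.26 and -0.14 for replicates 1, 2 and 3. The same-numbered Stau1 array was the best match of the control for replicate 2 but not for replicates 1 and 3. In the main fit the replicate numbers were taken as names only, and whether replicate 2 was paired was not tested. Fitting the replicate block in limma gave 0 members and 0 rows past the threshold. No slide is named in the table, so that alternative was not run. Relative to signal over background, the bead error was highest among the members for MAD1L1 and BUB1B (medians of 0.12 and 0.097 on the log2 scale).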
